A study of Mus musculus with 6 samples.

Results

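Integrins and cadherins were taken as the genes whose mouse symbol is Itga with a number or letters, Itgb with a number, or Cdh with a number. The rule found 49 of the 18305 genes measured, which were 18 integrin alpha chains, 8 integrin beta chains and 23 cadherins. Of the cadherins, 18 are classical cadherins, and 5 (Cdh13, Cdh16, Cdh17, Cdh23 and Cdh26) are relatives that lack the usual catenin-binding tail or are placed outside the classical group. RNA was sequenced from cultured cells of KM mice in 6 libraries, 2 in each of 3 groups. CiLC are mouse embryonic fibroblasts of passage 3 to 5, made from embryos of 12.5 or 13.5 days, that were given small molecules from 24 hours after seeding to turn them into Leydig-like cells. The labels do not name the compounds. LC are Leydig cells prepared from mouse testis and used at passage 0 to 1. MEF are embryonic fibroblasts of passage 3 to 5 from the same embryonic days, without induction. LC and the fibroblast cultures differ in tissue and passage as well as in cell type. They may also differ in donor age, since an embryonic day is given for the fibroblast cultures alone. These differences cannot be told apart.

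Integrins are receptors made of an alpha and a beta chain. They bind matrix proteins or ligands on other cells, and talin and kindlin connect their beta tails to actin. The alpha chain largely sets the ligand: collagen, laminin, proteins with an RGD sequence such as fibronectin, or, in leukocytes, cell-surface and complement ligands. Classical cadherins bind the same or a like cadherin on the next cell in the presence of calcium and hold beta-catenin, p120-catenin and alpha-catenin at their tails. Leydig cells lie in the loose tissue between the seminiferous tubules, beside capillaries and macrophages, and fibroblasts in culture depend on integrins to hold and spread on the dish.

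The libraries held 18.44 to 18.94 M estimated reads, and levels are CPM, reads per 1 M reads after trimmed-mean scaling. No label states that replicate libraries are separate cultures, so each p-value reflects library spread alone, and that spread may be technical. The Leydig markers Star, Cyp11a1 and Hsd3b1 were present in LC at 182, 705 and 35.3 CPM, whereas Cyp17a1 and Lhcgr were nearly absent there, at 0.0294 and 0.146 CPM. Cdh11, Cdh16, Itga11, Itga4, Itga7, Itgad, Itgam, Itgax, Itgb1 and Itgb3 had fractional values in all 6 libraries. How reads that fit more than 1 gene were divided is not known, so the levels of these 10 are less certain. Macrophage markers were abundant in every group. The 10 markers listed summed to 11018 and 11216 CPM in CiLC, 4198 and 3843 CPM in LC and 7008 and 7086 CPM in MEF. Lyz2 made up most of the sums in CiLC and LC, and without it, chosen after seeing the data like the other sums without a leading marker, the other 9 summed to 3533 and 3559 CPM in CiLC, 1489.8 and 1443 CPM in LC and 4376 and 4398 CPM in MEF, so that MEF was highest. In such bulk cultures, fewer cells of a type and less RNA per cell cannot be told apart.

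A gene was called at an adjusted p of 0.05 in edgeR's quasi-likelihood test over 14581 genes, and 43 of the 49 members passed the filter on low counts. Between CiLC and MEF, 11 of the 43 were higher in CiLC and 18 lower, where 26.1% of all genes tested were higher, 25.5% lower and 51.6% either. Of these, 6 were higher and 10 lower by at least 2-fold, where the shares over all genes were 6.23% and 5.98%. Between LC and MEF, 16 were higher in LC (35.7% of all genes) and 22 lower (35% of all genes, and 70.7% in either direction), with 10 higher and 20 lower by 2-fold or more (14.3% and 12.9% of all genes). Between CiLC and LC, 20 were higher in CiLC (35% of all genes) and 16 lower (35.6% of all genes, and 70.6% in either direction), with 17 higher and 10 lower by 2-fold or more (11.4% and 14% of all genes). With calls of any size, the members' higher shares in CiLC against MEF and LC against MEF, 25.6% and 37.2%, were near the background. Their lower shares of 41.9% and 51.2% were above it. In CiLC against LC the higher share, 46.5%, was above it and the lower one, 37.2%, near it. At 2-fold or more, the members' shares were above those of all genes in both directions of each comparison. The difference from all genes was not tested. The spread between libraries was small, with a biological coefficient of variation of 3.16%. With 0.4 assumed instead, the calls of CiLC against MEF that held were Cdh13 and Itga3 as higher and Itga11, Itga6, Itga8, Cdh1 and Cdh4 as lower. The comparisons share libraries and are therefore not independent of one another.

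**Figure D1:**
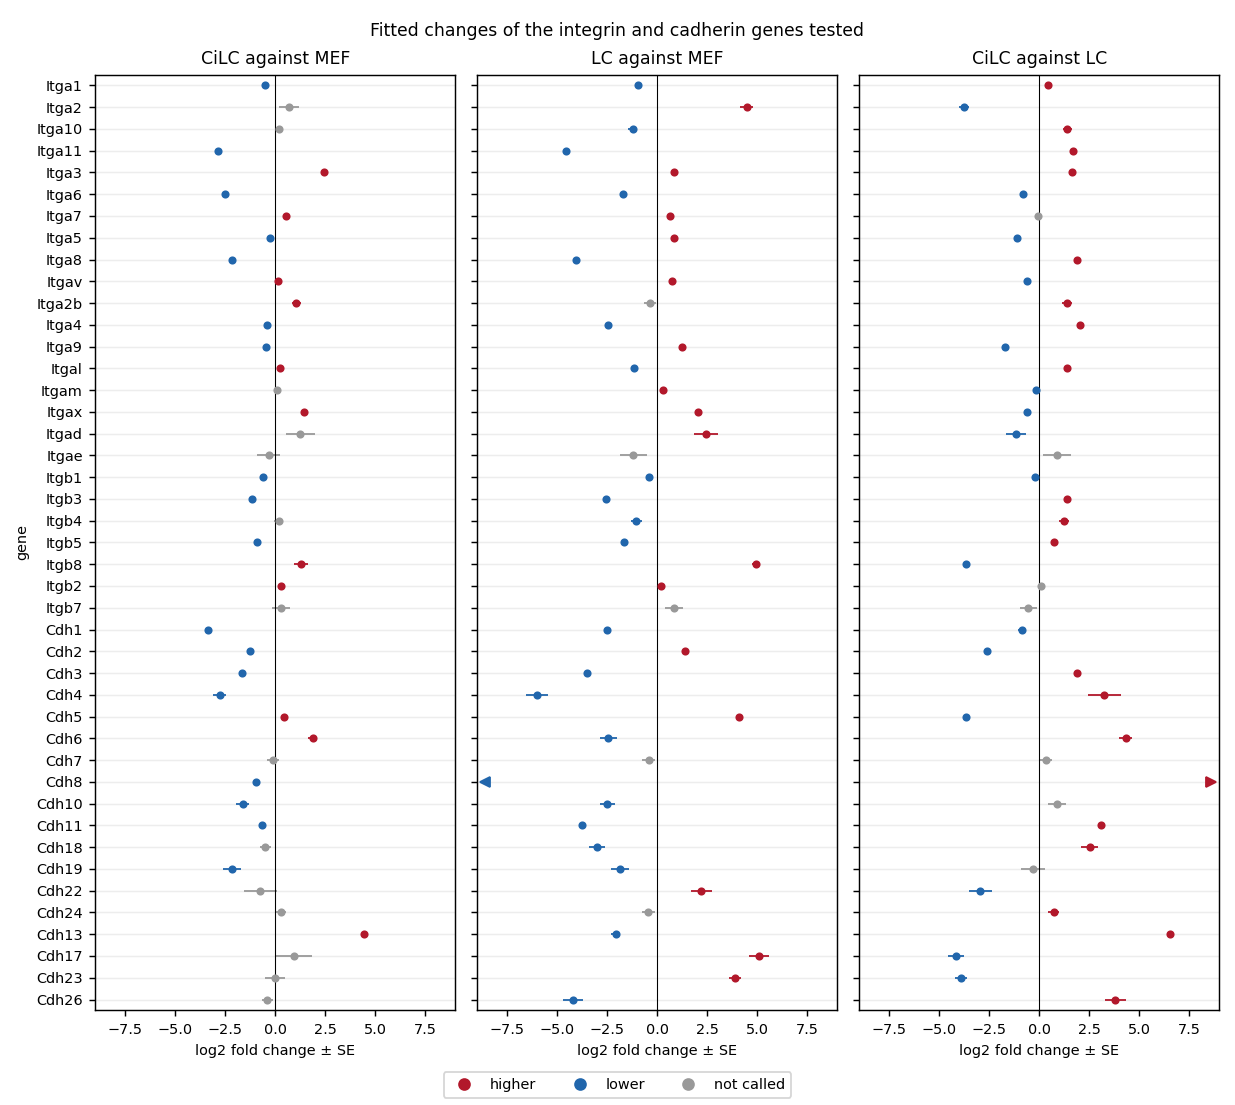
Log2 fold change ± SE (x axis) of the 43 members that passed the filter (y axis, by role) in the 3 comparisons, with 2 libraries per group. Red points were called higher and blue ones lower in the group named first, grey ones were not called, and triangles mark Cdh8, which had 0 reads in LC and has no finite fold. Itga11, Itga8, Cdh1, Cdh3 and Cdh4 lie left of 0 in both comparisons with MEF, and Cdh13 lies right of 0 in CiLC against MEF and left of it in LC against MEF.

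The collagen receptor chain of fibroblasts, Itga11, was the integrin with the largest fall in CiLC. Its levels were 102 and 99.6 CPM in CiLC, 31.5 and 30.8 CPM in LC and 726 and 735 CPM in MEF. No library of a group overlapped with those of another. The gene was 7.24-fold lower in CiLC than in MEF (log2 fold change -2.86 ± 0.048 SE, edgeR adjusted p = 1.51e-22), 23.5-fold lower in LC than in MEF (-4.55 ± 0.056, edgeR adjusted p = 6.19e-26) and 3.25-fold higher in CiLC than in LC (1.70 ± 0.060, edgeR adjusted p = 2.11e-17). Itga1, the other collagen receptor chain with high counts, had 64.5 and 55.6 CPM in CiLC, 40.4 and 47.3 CPM in LC and 89.6 and 84.1 CPM in MEF, and was lower by 1.45-fold in CiLC and by 1.98-fold in LC than in MEF. Itga2, the collagen receptor chain of epithelia and platelets, is the neighbour of Itga1 on chromosome 13 and took another course: 0.560 and 0.456 CPM in CiLC, 7.36 and 6.65 CPM in LC and 0.210 and 0.416 CPM in MEF. It was 21.9-fold higher in LC than in MEF (log2 fold change 4.45 ± 0.30 SE, edgeR adjusted p = 4.53e-12) and was not called between CiLC and MEF (edgeR adjusted p = 0.265). Itga10, a collagen receptor chain of cartilage, averaged 4.34 CPM in CiLC, 1.64 CPM in LC and 3.87 CPM in MEF, and only the differences from LC were called.

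Among the laminin receptor chains, Itga3 and Itga6 moved in opposite directions in both comparisons with MEF. Itga3 had 47.6 and 47.2 CPM in CiLC, 13.9 and 16.8 CPM in LC and 8.54 and 8.85 CPM in MEF. It was 5.44-fold higher in CiLC than in MEF (log2 fold change 2.44 ± 0.087 SE, edgeR adjusted p = 8.13e-17), 1.76-fold higher in LC than in MEF and 3.09-fold higher in CiLC than in LC. Its level was thus highest in the induced cells, beyond both other cultures. Itga6, which also pairs with Itgb4 in hemidesmosomes, had 29.9 and 33.0 CPM in CiLC, 53.5 and 56.6 CPM in LC and 180 and 184 CPM in MEF. It was 5.79-fold lower in CiLC than in MEF (log2 fold change -2.53 ± 0.057 SE, edgeR adjusted p = 2.21e-20) and 3.30-fold lower in LC than in MEF. Itga7, the laminin receptor chain of muscle, was 1.45-fold higher in CiLC and 1.52-fold higher in LC than in MEF, with means of 16.1, 16.9 and 11.1 CPM. CiLC and LC were not called different for Itga7 (log2 difference -0.08 ± 0.099 SE, edgeR adjusted p = 0.506).

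The chains that bind RGD proteins split. Itga8, a receptor of fibronectin and nephronectin that smooth muscle and other contractile cells express, had 25.2 and 25.0 CPM in CiLC, 6.38 and 7.48 CPM in LC and 122 and 108 CPM in MEF. It was 4.58-fold lower in CiLC (log2 fold change -2.20 ± 0.066 SE, edgeR adjusted p = 3.85e-18) and 16.6-fold lower in LC than in MEF (-4.05 ± 0.086, edgeR adjusted p = 1.12e-21). The 6 smooth muscle and peritubular markers summed to 143 and 145 CPM in CiLC. The sums were 964 and 950.1 CPM in LC and 1699.5 and 1610 CPM in MEF. All 6 were lower in CiLC than in MEF, and in LC against MEF 2 were higher and 4 lower. In CiLC against LC, 1 was higher and 5 lower, whereas Itga8 was 3.62-fold higher in CiLC. The part of these markers in the result was not tested. Itga5, the fibronectin receptor chain, had 258 and 262 CPM in CiLC, 554 and 578 CPM in LC and 311 and 322 CPM in MEF. It was 1.79-fold higher in LC than in MEF and 1.22-fold lower in CiLC than in MEF. Itgav, which pairs with several beta chains, was likewise highest in LC, with 282 and 267 CPM in CiLC, 412 and 422 CPM in LC and 258 and 241 CPM in MEF. Its 1.10-fold higher level in CiLC than in MEF was a call that ended without CiLC replicate 1 (adjusted p = 0.256) and without MEF replicate 2 (0.214), and with no filter on low counts (0.0531). Itga2b, the alpha chain of the platelet fibrinogen receptor, averaged 3.71 CPM in CiLC, 1.403 CPM in LC and 1.80 CPM in MEF, and was 2.05-fold higher in CiLC than in MEF. The 7 megakaryocyte and platelet markers summed to 20.3 and 20.7 CPM in CiLC, 36.4 and 33.6 CPM in LC and 7.61 and 6.78 CPM in MEF; their part was not tested. Of the 3 tested, Pf4 alone was higher in CiLC than in MEF, and without it the sum was 3.36 and 3.41 CPM in CiLC, 3.08 and 2.30 CPM in LC and 3.36 and 3.29 CPM in MEF. Itga4, a receptor of Vcam1 and fibronectin, had 165 and 156 CPM in CiLC, 38.5 and 40.9 CPM in LC and 215 and 220 CPM in MEF, and was 4.04-fold higher in CiLC than in LC (log2 fold change 2.01 ± 0.057 SE, edgeR adjusted p = 3.44e-19). Itga9, the related chain that binds tenascin C, ran the other way, with 31.1 CPM in each CiLC library, 96.7 and 105 CPM in LC and 44.4 and 42.7 CPM in MEF, and was 3.25-fold lower in CiLC than in LC.

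**Figure D2:**
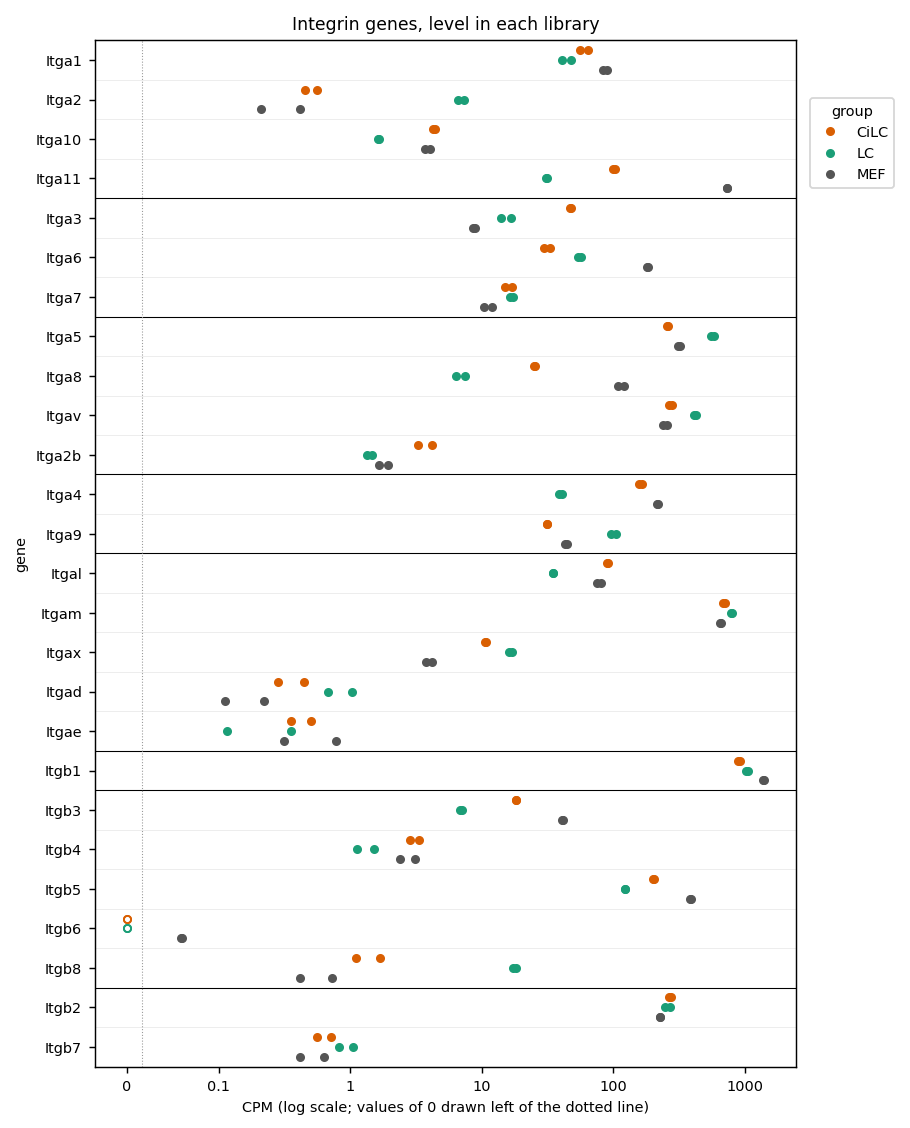
Level of each of the 26 integrin genes (y axis, grouped by role between black lines) in CPM on a log scale (x axis). Each point is 1 library, 2 per group, and open points mark genes with 0 reads in at least 1 library of that group. Itga11, Itga6 and Itga8 sit highest in MEF, Itga3 in CiLC, and Itga2, Itga9 and Itgb8 in LC.

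The promoters of integrins that moved in opposite directions are shown for comparison, as RefSeq gives them on GRCm38.p6, from 250 bases before to 50 bases after an annotated start, 5′ to 3′ on the gene's strand. Itga11 and Itga8 had their highest levels in MEF, Itga3 in CiLC and Itgb8 in LC. The counts rest on mm9, so these windows give sequence only. Itga11 lies at chr9:62677605-62677904 (plus strand), Itga8 at chr2:12301895-12302194 (minus strand), Itga3 at chr11:95076665-95076964 (minus strand; a further window of this gene is not shown) and Itgb8 at chr12:119238227-119238526 (minus strand). Capitals mark any match, on either strand, to the 8 motifs named after the sequences.
Itga11: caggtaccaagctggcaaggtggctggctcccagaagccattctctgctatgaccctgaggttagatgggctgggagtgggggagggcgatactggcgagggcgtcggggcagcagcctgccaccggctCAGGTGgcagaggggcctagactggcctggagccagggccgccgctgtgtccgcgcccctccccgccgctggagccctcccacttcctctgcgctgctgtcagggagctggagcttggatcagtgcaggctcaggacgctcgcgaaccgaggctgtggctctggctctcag
Itga8: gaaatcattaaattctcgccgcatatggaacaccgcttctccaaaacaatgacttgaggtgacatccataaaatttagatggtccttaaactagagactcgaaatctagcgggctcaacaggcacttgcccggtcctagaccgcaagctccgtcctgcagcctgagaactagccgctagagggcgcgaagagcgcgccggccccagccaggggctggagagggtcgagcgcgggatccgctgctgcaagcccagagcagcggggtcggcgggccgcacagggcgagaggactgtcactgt
Itga3: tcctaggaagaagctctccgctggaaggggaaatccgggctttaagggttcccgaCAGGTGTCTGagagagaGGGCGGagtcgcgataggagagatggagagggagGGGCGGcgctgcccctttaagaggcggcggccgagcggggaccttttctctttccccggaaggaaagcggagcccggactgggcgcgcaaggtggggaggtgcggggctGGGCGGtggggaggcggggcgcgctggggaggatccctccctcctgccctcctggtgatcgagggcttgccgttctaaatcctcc
Itgb8: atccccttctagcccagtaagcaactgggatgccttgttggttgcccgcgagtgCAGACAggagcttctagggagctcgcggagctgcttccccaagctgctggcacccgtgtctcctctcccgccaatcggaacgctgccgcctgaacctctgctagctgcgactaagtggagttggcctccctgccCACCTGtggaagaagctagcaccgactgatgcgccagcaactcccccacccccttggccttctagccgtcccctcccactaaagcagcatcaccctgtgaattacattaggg
The motif searched for SP factors was GGGCGG. For TEAD factors it was GGAATG, and for the E-box of zinc-finger repressors CAGGTG. The AP-1 motif was TGANTCA, where N is any base. For NR5A receptors, which include the steroidogenic factor of Leydig cells, it was AAGGTCA. The GATA motif was AGATAA, the SMAD element was CAGACA, and the TATA box was TATAAA. Each was searched on both strands. The windows printed held 3 SP matches for Itga3 and none for Itga11, Itga8 or Itgb8. The E-box letters occurred 1 time each in Itga11, Itga3 and Itgb8, and the SMAD element 1 time each in Itga3, where it overlaps the E-box, and Itgb8. The Itga8 window held no match. Windows were given for 31 of the 49 members, 35 in all. The SP motif was in 40% of the 35 and in 35.7% of all 32851 windows, the E-box in 25.7% and 20.2%, and the SMAD element in 37.1% and 21%. The TEAD motif was in 14.3% of the members' windows and 14.7% of all windows, AP-1 in 8.6% and 7.8%, GATA in 5.7% and 11.2%, NR5A in 2.9% and 4.7%, and the TATA box in 0% and 13.6%. The median GC content was 56.7% in the members' windows and 52.7% in all windows. A match is a description of the letters, and binding was not measured.

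Leukocyte integrins were present in all 3 cultures. Itgam, the alpha chain of the complement receptor Mac-1 on macrophages, had 712 and 684 CPM in CiLC, 798 and 782 CPM in LC and 663 and 651 CPM in MEF. It was 1.203-fold higher in LC than in MEF (log2 fold change 0.27 ± 0.045 SE, edgeR adjusted p = 1.44e-05), was not called between CiLC and MEF (edgeR adjusted p = 0.109), and was 1.13-fold lower in CiLC than in LC, a call lost with upper-quartile scaling (adjusted p = 0.0659) and without CiLC replicate 2 (0.0524). Itgb2, its beta chain, had 265 and 275 CPM in CiLC, 269 and 247 CPM in LC and 226 and 227 CPM in MEF. It was 1.19-fold higher in CiLC than in MEF, and 1.14-fold higher in LC than in MEF, where the call ended with upper-quartile scaling (adjusted p = 0.116) and without LC replicate 1 (0.0561). Across the groups the chains of Mac-1 thus differed by 1.203-fold at most.

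The other leukocyte alpha chains differed more. Itgax, the alpha chain that marks dendritic cells and some macrophages, had 10.6 and 10.7 CPM in CiLC, 16.1 and 17.04 CPM in LC and 3.77 and 4.204 CPM in MEF. It was 2.67-fold higher in CiLC (log2 fold change 1.42 ± 0.13 SE, edgeR adjusted p = 2.66e-09) and 4.13-fold higher in LC than in MEF (2.05 ± 0.12, edgeR adjusted p = 4.77e-13). Itgal, the alpha chain of LFA-1, went the other way in LC, with 89.1 and 91.4 CPM in CiLC, 34.8 and 34.7 CPM in LC and 74.8 and 80.3 CPM in MEF. It was 2.60-fold higher in CiLC than in LC and 2.23-fold lower in LC than in MEF. Itgad averaged 0.366 CPM in CiLC, 0.858 CPM in LC and 0.166 CPM in MEF. It was 5.41-fold higher in LC than in MEF, and its call between CiLC and LC was lost without either CiLC library (adjusted p = 0.0652 and 0.205), without LC replicate 2 (0.264) and with DESeq2 (0.265). Itgam, Itgax and Itgad are neighbours on chromosome 7, and are among the 10 members with fractional values in all 6 libraries. Itgae, which pairs with Itgb7 and binds E-cadherin, and Itgb7 itself reached at most 0.786 and 1.04 CPM in any library and were called in no comparison.

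The macrophage markers did not follow a single course in the comparisons with MEF. In CiLC against MEF, 4 of the 10 were higher, 4 lower and 2 not called, and 1 was higher, 7 lower and 2 not called in LC against MEF. Between CiLC and LC, by contrast, 9 were higher in CiLC and 1 lower. Ptprc, the pan-leukocyte CD45 gene, averaged 198 CPM in CiLC, 68.4 CPM in LC and 161 CPM in MEF, and Csf1r 928 CPM in CiLC, 340 CPM in LC and 1289.9 CPM in MEF. Itgal was lower in LC beside Ptprc and Csf1r, whereas Itgam, Itgb2 and Itgax were not lower there. The part of macrophage numbers in these values was not tested. The 7 markers of other leukocytes with a row in the tables summed to at most 2.61 CPM in any library.

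**Figure D3:**
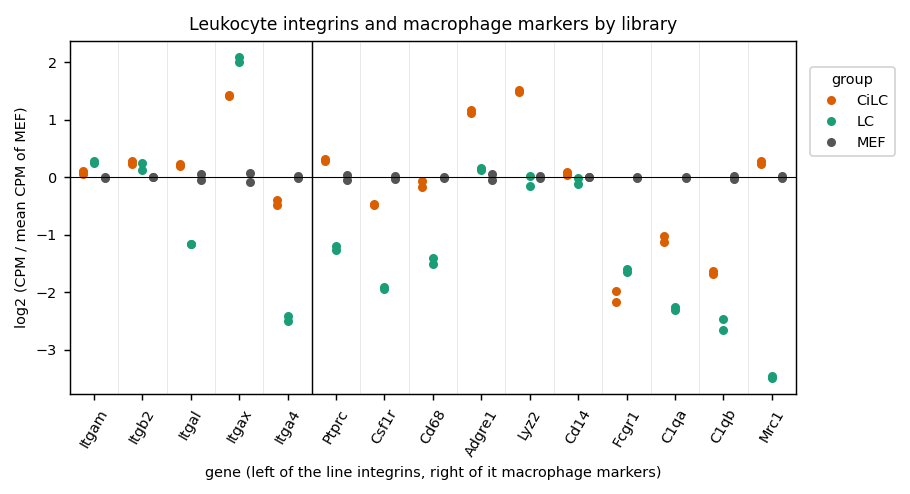
Level in each library (points, 2 per group) as log2 of CPM over the mean CPM of MEF (y axis), for 5 integrins found on leukocytes and 10 macrophage markers (x axis). In LC, Itgal and Itga4 lie below 0 with Ptprc, Csf1r and Mrc1, while Itgam, Itgb2 and Itgax lie above 0.

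The beta1 chain, Itgb1, which pairs with most matrix-binding alpha chains, was the beta gene with the most reads in all groups. It had 925 and 891 CPM in CiLC, 1057 and 1024 CPM in LC and 1400.3 and 1374 CPM in MEF. It was 1.53-fold lower in CiLC (log2 fold change -0.61 ± 0.045 SE, edgeR adjusted p = 6.77e-11) and 1.33-fold lower in LC than in MEF (-0.41 ± 0.045, edgeR adjusted p = 2.25e-08), and 1.15-fold lower in CiLC than in LC. The vitronectin receptor chain Itgb5 had 201 and 203 CPM in CiLC, 124 and 123 CPM in LC and 386 and 392 CPM in MEF, and was 1.92-fold lower in CiLC and 3.15-fold lower in LC than in MEF. Itgb3, the partner of Itgav and Itga2b, was lower as well, with 18.3 and 18.1 CPM in CiLC, 6.89 and 7.07 CPM in LC and 41.2 and 40.9 CPM in MEF (2.26-fold lower in CiLC and 5.88-fold in LC). Both were thus lower in CiLC than in MEF and lower again in LC. Itgb8, which with Itgav releases active TGF-beta from its latent form, stood apart, with 1.68 and 1.12 CPM in CiLC, 17.2 and 18.2 CPM in LC and 0.734 and 0.416 CPM in MEF. It was 30.5-fold higher in LC than in MEF (log2 fold change 4.93 ± 0.20 SE, edgeR adjusted p = 3.78e-16). Its 2.41-fold higher level in CiLC than in MEF was lost as a call without CiLC replicate 1 (adjusted p = 0.0802) and without MEF replicate 2 (0.0694). Itgb4, the hemidesmosome chain, averaged 3.07 CPM in CiLC, 1.31 CPM in LC and 2.74 CPM in MEF and was called only in the comparisons with LC. Itgb6, the epithelial partner of Itgav, had 0 reads in all CiLC and LC libraries and 1 in each MEF library, and no fold is given.

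To set genes beside each other, CPM were divided by the length of the longest coding transcript of the gene in kilobases. On this scale, the 18 alpha genes summed to 346 and 337 CPM per kb in CiLC, 416 and 424 CPM per kb in LC and 516 and 514 CPM per kb in MEF. Itga11 made up 5.95% ± 0.0084 of the alpha sum in CiLC, 1.49% ± 0.041 in LC and 28.5% ± 0.31 in MEF (SD, n = 2 each), where it was the alpha gene with the highest level. Itgam held 43.7% ± 0.44 in CiLC, 40.2% ± 1.1 in LC and 27.2% ± 0.30 in MEF. Itga5 held 17.4% ± 0.49 in CiLC, 30.8% ± 0.54 in LC and 14.0% ± 0.38 in MEF. In CiLC and LC the first ranks were the same, Itgam, then Itga5, then Itgav, and Itga11 ranked 4 in CiLC and 7 in LC. Among the beta genes, Itgb1 held 60.3% ± 1.1 in CiLC, 68.0% ± 0.43 in LC and 64.2% ± 0.46 in MEF, and Itgb2 23.1% ± 0.82, 21.6% ± 0.70 and 13.5% ± 0.12. These shares depend on the transcript lengths assumed and on the share of macrophage RNA, which was not measured.

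**Figure D4:**
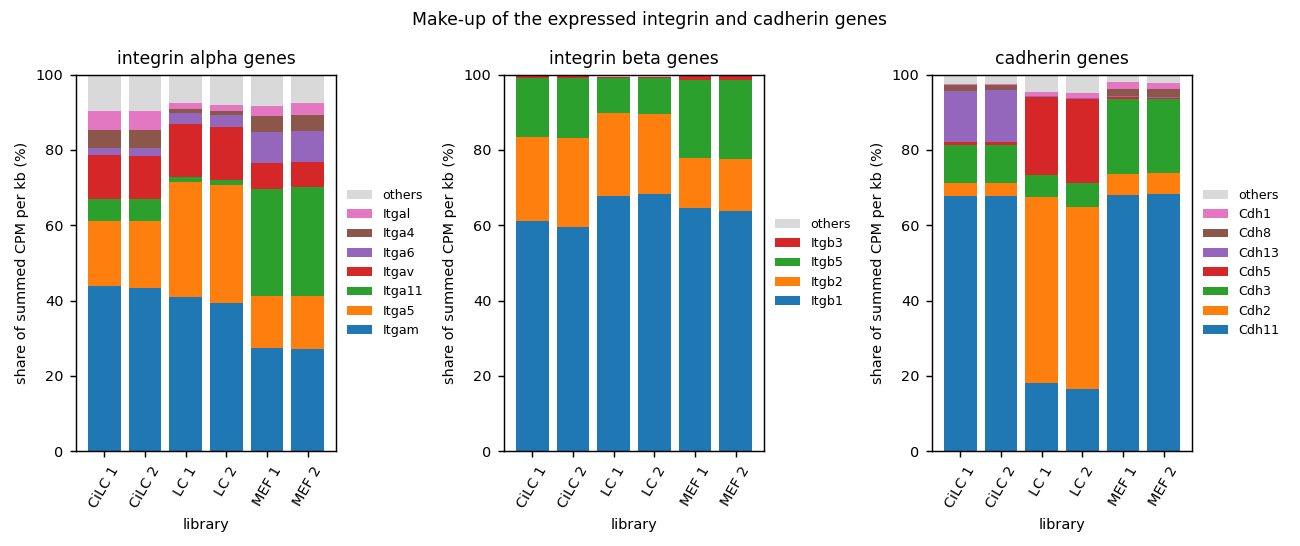
Share (y axis, %) of each gene in the summed CPM per kb of the integrin alpha, integrin beta and cadherin genes, in each library (x axis); colours are set separately in each panel. Itga11 takes 28.5% of the alpha sum in MEF and under 6% in CiLC and LC, and Cdh2 takes 48.9% of the cadherin sum in LC.

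The listed integrin adaptors, which include kinases, docking proteins and regulators as well as proteins that link to actin, were mostly lower in CiLC. Of 28 tested of 30 listed, 25 were lower and 2 higher in CiLC than in MEF (89.3% and 7.14%, where all genes gave 25.5% and 26.1%), with a median log2 fold change of -0.59, against 0.005 over all genes. Nedd9, a docking protein of the Cas family, fell by 1.68 on the log2 scale, Tgfb1i1, the paxillin relative Hic-5, by 1.51, and Tln2, a further talin, by 1.395. Of the 25, 7 were lower by at least 2-fold, 11 were lower with a minimum change of 1.5-fold in the test, and none with a coefficient of variation of 0.4. The 2 that were higher were Ptk2, the focal adhesion kinase (log2 fold change 0.22), and Tns2 (0.14), and this count was 1 with DESeq2 and without any 1 of the CiLC or MEF libraries. In LC against MEF, 14 were higher and 11 lower (50% and 39.3%, where all genes gave 35.7% and 35%), with a median of 0.10. The scaffold Bcar1 (1.41), Tns1 (1.36) and Fblim1 (0.97) had the largest positive log2 fold changes, and Parvg (-2.22), Tln2 (-1.62) and Ptk2b (-1.30) the largest negative ones. In CiLC against LC, 4 were higher and 20 lower (14.3% and 71.4%, where all genes gave 35% and 35.6%, median -0.56), the lower ones led by Tns1 (-2.22), Bcar1 (-1.79) and Fblim1 (-1.71); without CiLC replicate 2, the count of higher ones was 2.

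Among 22 matrix ligands of integrins tested, CiLC against MEF gave 6 higher and 12 lower, or 27.3% and 54.5%, where all genes gave 26.1% and 25.5%, so that the higher share was near that of all genes. Their median was -0.18 on the log2 scale. Vtn, vitronectin, averaged 0.483 ± 0.037 CPM in CiLC and 12.7 ± 2.2 CPM in MEF (SD, n = 2 each), and Npnt, the nephronectin bound by Itga8, averaged 14.7 CPM in CiLC and 1.23 CPM in MEF. Npnt and its receptor chain Itga8 thus differed in opposite directions between CiLC and MEF. Against LC, both were higher in CiLC, by 3.48 and 1.86 on the log2 scale. In LC against MEF, 9 were higher and 12 lower (40.9% and 54.5%, where all genes gave 35.7% and 35%), with a median of -0.17. The laminin chain Lama1, at 225 CPM in LC and 4.34 CPM in MEF, led the higher ones, and Postn, periostin, at 32.2 CPM in LC and 3141 CPM in MEF, led the lower ones. In CiLC against LC, 7 were higher and 14 lower (31.8% and 63.6%, where all genes gave 35% and 35.6%), with Postn at 1740.1 CPM in CiLC and 32.2 CPM in LC. Of 11 ligands on cell surfaces or of latent TGF-beta, CiLC against MEF gave 4 higher and 5 lower (36.4% and 45.5%), LC against MEF 8 and 3 (72.7% and 27.3%), and CiLC against LC 3 and 8 (27.3% and 72.7%). The shares over all genes are those given for the matrix ligands, and no difference of a list from all genes was tested. Vcam1, the ligand of Itga4, was higher than in MEF by 1.12 in CiLC and 1.60 in LC on the log2 scale. Icam1, a ligand of the Itgb2 receptors, was higher by 1.07 and 1.88, and Lrrc32, which displays latent TGF-beta, by 1.33 and 2.02. Tgfb3, Nrros and Tgfb1 of the same list were instead highest in MEF. Tgfb3 had 68.0 and 65.7 CPM in CiLC, 39.2 and 38.5 CPM in LC and 166 and 174 CPM in MEF. In the same order, Nrros had 94.8 and 98.4, 44.2 and 40.2, and 131 and 138 CPM. Tgfb1 had 268 and 279, 228 and 226, and 309 and 355 CPM. Madcam1, a ligand of Itga4 with Itgb7, averaged 0.0762 CPM in CiLC, 10.2 CPM in LC and 0.0262 CPM in MEF.

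Among the type I classical cadherins, all 4 that passed the filter were lower in CiLC than in MEF, where 25.5% of all genes were. Cdh3, P-cadherin, had 68.7 and 67.0 CPM in CiLC, 17.2 and 20.01 CPM in LC and 219 and 207 CPM in MEF, and was 3.14-fold lower in CiLC (log2 fold change -1.65 ± 0.053 SE, edgeR adjusted p = 1.58e-17) and 11.5-fold lower in LC than in MEF (-3.52 ± 0.066, edgeR adjusted p = 1.19e-22). Its neighbour on chromosome 8, Cdh1, is E-cadherin of epithelia. Cdh1 had 2.19 and 1.74 CPM in CiLC, 3.31 and 3.85 CPM in LC and 21.1 and 19.7 CPM in MEF, and was 10.4-fold lower in CiLC than in MEF (log2 fold change -3.38 ± 0.14 SE, edgeR adjusted p = 1.46e-15). Both neighbours were highest in MEF, while Cdh3 was higher and Cdh1 lower in CiLC than in LC. The 8 epithelial and mesothelial markers summed to 104 and 96.9 CPM in CiLC, 9.86 and 8.06 CPM in LC and 9.02 and 10.9 CPM in MEF. Cdh1 was thus lowest where the sum was highest, but single markers differed. Msln (37.6 and 37.2 CPM), Upk3b (36.6 and 32.2 CPM) and Krt18 (20.5 and 19.0 CPM) led the CiLC sum. Epcam ran the other way, at 0 and 0.101 CPM in CiLC and 1.16 and 1.41 CPM in LC. Cldn4 did so too, at 4.06 and 3.53 CPM in LC. For CiLC against LC, 7 of the markers were tested, with 5 calls as higher and 2 as lower. Of the 8, Cldn4 and Cldn6 had 0 reads in CiLC and in MEF, and Epcam 0 in MEF.

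Cdh2, N-cadherin of neural, muscle and many mesenchymal cells, differed in opposite directions. It had 27.0 and 26.8 CPM in CiLC, 166 and 168 CPM in LC and 66.8 and 63.7 CPM in MEF. It was 2.42-fold lower in CiLC than in MEF (log2 fold change -1.28 ± 0.061 SE, edgeR adjusted p = 1.95e-14), 2.56-fold higher in LC than in MEF (1.35 ± 0.050, edgeR adjusted p = 3.92e-17) and 6.20-fold lower in CiLC than in LC (-2.63 ± 0.056, edgeR adjusted p = 1.49e-21). CiLC thus lay below the starting fibroblasts, on the side away from LC. The 6 Sertoli markers summed to 90.6 and 91.5 CPM in CiLC, 1989 and 1996 CPM in LC and 24.1 and 27.5 CPM in MEF. Most of each sum was Clu, at 1939 and 1944.5 CPM in LC. Fshr was at 0 in CiLC, and Dmrt1, Fshr and Rhox5 were at 0 in MEF. All 4 markers tested were higher in LC than in MEF and lower in CiLC than in LC. In CiLC against MEF, 2 were higher and 2 not called. The part of these markers in the LC value was not tested. Cdh4, R-cadherin, had 0.814 and 0.406 CPM in CiLC, 0 and 2 reads in LC and 4.25 and 4.22 CPM in MEF. It was 6.88-fold lower in CiLC than in MEF. Its ratio of MEF over LC was 72.4 (exact 95% binomial interval 19.7 to 603, counting error only) and of CiLC over LC 10.4 (2.59 to 91.1). The fitted log2 fold change of LC against MEF was -5.09 without LC replicate 1 and -9.33 without LC replicate 2, and that of CiLC against LC 2.31 and 6.55.

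**Figure D5:**
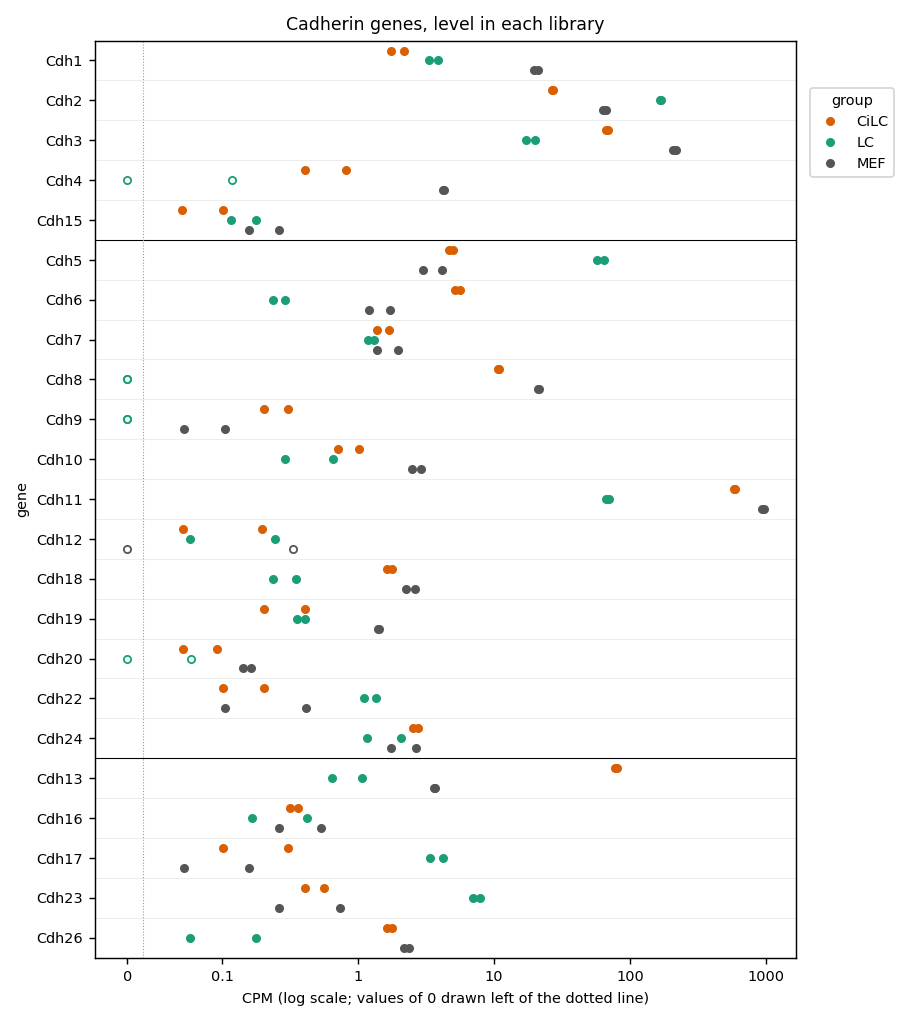
Level of each of the 23 cadherin genes (y axis; type I, type II and other cadherins between black lines) in CPM on a log scale (x axis). Each point is 1 library, 2 per group, with values of 0 left of the dotted line and open points for genes with 0 reads in at least 1 library of that group. Cdh11 and Cdh3 sit highest in MEF, Cdh13 and Cdh6 in CiLC, and Cdh2, Cdh5, Cdh17 and Cdh23 in LC.

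Among the type II cadherins, Cdh11, the cadherin of mesenchymal cells and fibroblasts, had the highest level per kilobase of all cadherins in CiLC and MEF. It had 595 and 580.5 CPM in CiLC, 70.4 and 66.8 CPM in LC and 968 and 929 CPM in MEF. It was 1.61-fold lower in CiLC than in MEF (log2 fold change -0.69 ± 0.045 SE, edgeR adjusted p = 7.70e-12), 13.8-fold lower in LC than in MEF (-3.79 ± 0.054, edgeR adjusted p = 7.79e-25) and 8.57-fold higher in CiLC than in LC (3.10 ± 0.054, edgeR adjusted p = 3.40e-23). Per kilobase, Cdh11 made up 67.7% ± 0.0045 of the cadherin sum in CiLC, 17.3% ± 1.1 in LC and 68.2% ± 0.14 in MEF, whereas Cdh2 held 3.61% ± 0.039, 48.9% ± 0.93 and 5.47% ± 0.015 (SD, n = 2 each). The leading cadherin of CiLC was thus that of MEF and not that of LC. The cadherin sum itself was 156 and 152 CPM per kb in CiLC, 69.2 and 71.7 CPM per kb in LC and 252 and 241 CPM per kb in MEF.

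Cdh5 and Cdh8 flank Cdh11 on chromosome 8. Cdh8 had the same order of groups as Cdh11, and Cdh5 did not. Cdh5, VE-cadherin of endothelium, had 4.68 and 4.97 CPM in CiLC, 57.2 and 63.9 CPM in LC and 4.14 and 3.02 CPM in MEF, and was 16.9-fold higher in LC than in MEF (log2 fold change 4.08 ± 0.11 SE, edgeR adjusted p = 8.56e-20). Its 1.35-fold higher level in CiLC than in MEF was a call lost without either CiLC library (adjusted p = 0.0853 and 0.167), without MEF replicate 2 (0.394), with DESeq2 (0.0951) and with no filter (0.110). The 8 endothelial markers, which do not include Cdh5, summed to 12.7 and 11.6 CPM in CiLC, 22.0 and 22.6 CPM in LC and 27.3 and 28.2 CPM in MEF, with Cldn5 at 0 in CiLC and Tie1 at 0 in MEF. Of the 6 tested, 3 were higher in LC than in MEF, among them Pecam1 at 1.37 CPM in LC and 0.470 CPM in MEF, 1 was lower, Kdr at 9.76 CPM in LC and 19.2 CPM in MEF, and 2 were not called. Without Kdr the sum was 10.1 and 9.13 CPM in CiLC, 12.8 and 12.2 CPM in LC and 8.39 and 8.59 CPM in MEF. The part of endothelial cells in the Cdh5 level of LC was not tested. Cdh8, a cadherin known mainly from the nervous system, had 10.7 and 10.9 CPM in CiLC, 0 reads in both LC libraries and 21.1 and 21.4 CPM in MEF. It was 1.97-fold lower in CiLC than in MEF. Against a floor of 3 reads over the LC libraries, it was at least 123-fold higher in CiLC than in LC and at least 243-fold lower in LC than in MEF.

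The remaining type II cadherins had low levels. Cdh6, K-cadherin of the developing kidney, had 5.60 and 5.17 CPM in CiLC, 0.290 and 0.235 CPM in LC and 1.21 and 1.72 CPM in MEF. It was 3.67-fold higher in CiLC than in MEF (log2 fold change 1.88 ± 0.23 SE, edgeR adjusted p = 2.34e-07), 5.45-fold lower in LC than in MEF and higher in CiLC than in LC by 4.32 on the log2 scale, so that CiLC lay above both other cultures. Cdh10, Cdh18 and Cdh19 were highest in MEF, at means of 2.69, 2.43 and 1.41 CPM. Cdh10 was 3.10-fold and Cdh19, a cadherin of Schwann cell precursors, 4.55-fold lower in CiLC than in MEF, whereas Cdh18 was called only against LC. Sox10, a marker of those precursors, averaged 0.914 CPM in CiLC, 0.816 CPM in LC and 4.204 CPM in MEF. The 6 neural and glial markers summed to 77.1 and 76.6 CPM in CiLC. Their sums were 239 and 240.1 CPM in LC and 259 and 271 CPM in MEF. Ncam1 made up most of each sum, with 125 and 129 CPM in LC and 190 and 197 CPM in MEF. Of the 6, 5 were lower and 1 not called in CiLC against MEF, and 2 were higher and 4 lower in LC than in MEF. The part of these markers was not tested. Cdh22 averaged 0.152 CPM in CiLC, 1.23 CPM in LC and 0.261 CPM in MEF, and its log2 fold change of 2.20 in LC against MEF was 1.53 without MEF replicate 1 and 3.46 without MEF replicate 2. Cdh24 was called only as higher in CiLC than in LC, a call lost without either CiLC library (adjusted p = 0.123 and 0.067), without LC replicate 1 (0.348) and with DESeq2 (0.190). Cdh7 was called in no comparison.

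The largest rise of any member in CiLC was that of Cdh13, T-cadherin, a cadherin that is held in the membrane by a lipid anchor and binds adiponectin. It had 80.4 and 78.0 CPM in CiLC, 0.638 and 1.06 CPM in LC and 3.67 and 3.59 CPM in MEF. Its level was 21.8-fold higher in CiLC than in MEF (log2 fold change 4.45 ± 0.090 SE, edgeR adjusted p = 3.36e-21), 4.26-fold lower in LC than in MEF (-2.09 ± 0.24, edgeR adjusted p = 6.50e-08) and 92.8-fold higher in CiLC than in LC (6.54 ± 0.12, edgeR adjusted p = 1.60e-22). It reached 13.6% ± 0.051 of the cadherin sum per kilobase in CiLC, against 0.317% ± 0.10 in LC and 0.390% ± 0.0062 in MEF (SD, n = 2 each).

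Cdh17 and Cdh23 were found mainly in LC. Cdh17, a cadherin of liver and intestine, had 6 and 2 reads in CiLC, 72 and 57 reads in LC and 3 and 1 reads in MEF, and was 33.9-fold higher in LC than in MEF (log2 fold change 5.08 ± 0.48 SE, edgeR adjusted p = 1.59e-09). That log2 fold change was 6.00 without MEF replicate 1, and that of CiLC against LC, -4.17, was -5.12 without CiLC replicate 1. Cdh23, part of the tip links of hair cells, had 0.560 and 0.406 CPM in CiLC, 6.96 and 7.89 CPM in LC and 0.734 and 0.260 CPM in MEF. It was 14.8-fold higher in LC than in MEF (log2 fold change 3.88 ± 0.29 SE, edgeR adjusted p = 2.94e-11), and 4.79 on the log2 scale without MEF replicate 1. Cdh26, a cadherin of epithelia, showed the reverse, with 1.63 and 1.77 CPM in CiLC, 1 and 3 reads in LC and 2.36 and 2.19 CPM in MEF. Its log2 fold change was 3.79 in CiLC against LC and -4.21 in LC against MEF, and 4.72 and -5.14 without LC replicate 2. None of Cdh17, Cdh23 and Cdh26 was called between CiLC and MEF (edgeR adjusted p from 0.214 to 0.958).

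The 6 members under the filter were Cdh9, Cdh12, Cdh15, Cdh16, Cdh20 and Itgb6. Their highest value in any library was 0.530 CPM, for Cdh16. Cdh9 had 10 reads over the CiLC libraries, 0 over the LC libraries and 3 over the MEF libraries, a ratio of CiLC over MEF of 3.24 (exact 95% binomial interval 0.835 to 18.3). Cdh15, M-cadherin of muscle, had 3 reads in CiLC, 5 in LC and 8 in MEF.

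The catenins and other listed partners of cadherin junctions, which include the membrane receptors Nectin1, Nectin2 and Nectin3, had a median absolute log2 fold change of 0.32 in CiLC against MEF and 0.65 in LC against MEF, where the cadherins tested had 0.95 and 2.77 and all genes 0.25 and 0.45. Of 14 tested of 15 listed, CiLC against MEF gave 4 higher and 7 lower (28.6% and 50%, median -0.22 on the log2 scale), LC against MEF 3 and 9 (21.4% and 64.3%, median -0.30), and CiLC against LC 4 and 6 (28.6% and 42.9%, median -0.04). All genes gave 26.1% and 25.5%, 35.7% and 35%, and 35% and 35.6% in the same order. Over all genes these medians were 0.005, -0.008 and 0.005. Ctnna2, the alpha-catenin of neurons, averaged 2.06 CPM in CiLC, 4.09 CPM in LC and 40.4 CPM in MEF. Jup, plakoglobin, averaged 30.9 CPM in CiLC, 28.1 CPM in LC and 84.1 CPM in MEF. Ctnnb1, beta-catenin, chosen after its values were seen, averaged 375 CPM in CiLC, 348 CPM in LC and 441 CPM in MEF, a log2 fold change of -0.23 in CiLC and -0.34 in LC against MEF. Nectin2, an adhesion receptor that joins cadherin junctions through afadin, averaged 119 CPM in CiLC, 404 CPM in LC and 104 CPM in MEF. Arvcf, a relative of p120-catenin, was lower in LC alone, at 6.84 CPM, against 24.2 CPM in CiLC and 23.2 CPM in MEF.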

How the data were processed

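Per the file headers, the values the authors deposited are read counts per gene, in the form of estimated counts that need not be whole and were not scaled for library size. Per the submitters' processing notes, reads were aligned with HISAT to mm9. How reads were counted, with which annotation and with what use of strand is not given in the sources used here. Overlapping and antisense genes may therefore share reads. Between 32.36% and 32.83% of a library's values were not whole. NCBI gene numbers were matched to symbols in a RefSeq table of GRCm38.p6 (18179 of 18305), which also gave neighbouring genes and promoter sequences. Transcript lengths came from GENCODE M21.

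Groups and replicate numbers came from the sample titles. After rounding, edgeR 4.0.16 (R 4.3.3) was used for all tests: filterByExpr (minimum count 10, minimum total 15, which kept 14581 genes), trimmed mean of M values, and 1 quasi-likelihood fit of all 6 libraries by group, two-sided, with Benjamini-Hochberg adjustment over all genes tested. The prior count was 0.125, and standard errors derive from the F statistic. The procedure was tested on simulated data. The chi-square per degree of freedom between the libraries of a group was 1.80 for CiLC, 2.98 for LC and 2.81 for MEF among genes of whole values with 20 reads or more, so both libraries were kept. Folds against a group at 0 use a floor of 3 reads over that group. Intervals and floors cover counting error only.

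The members, the lists of partner and marker genes and the tests were chosen with earlier results of these data known. Per comparison, full statistics were given for up to 8 called members with the largest change in each direction and for Itgb1, and partner lists are described by their counts, medians and up to 3 called genes in each direction. Statistics of other members, of Vcam1, Icam1 and Lrrc32 in LC against MEF, and the levels of Tgfb3, Nrros and Tgfb1 were chosen after their values were seen. Single values of some listed genes are not reported here. Alternatives covered 17 settings, including DESeq2 1.42.0, other scalings and filters, each library left out, a replicate block and an assumed spread.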

Additional observations from a re-analysis of the deposited data

How the results depend on the processing

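No called member changed sign in any of the 17 settings in which it was fitted. Of 103 calls of a member in a comparison, 96 held in each setting in which they were fitted, apart from those that assume a spread or a minimum change, and 7 were lost in at least 1 of the others (26 members had a value in all 17): Cdh5, Itgav and Itgb8 in CiLC against MEF, Itgb2 in LC against MEF, and Cdh24, Itgad and Itgam in CiLC against LC. Testing with no filter ended 4 of these, Cdh5, Itgav, Cdh24 and Itgad. Of 26 results not called, 4 were called in some setting. With a coefficient of variation of 0.4 assumed, the members higher and lower were 2 and 5 in CiLC against MEF (2.79% and 1.84% of all genes), 8 and 16 in LC against MEF (9.94% and 7.26%), and 12 and 8 in CiLC against LC (6.43% and 9.01%). With 0.1 assumed, those higher in CiLC than in MEF numbered 7 (14.2% of all genes). With a minimum change of 1.5-fold, 4 members were higher in CiLC than in MEF (7.06%) and 10 lower in CiLC than in LC (17%). With genes of whole values alone, which left 28 members, 9 were lower in CiLC than in MEF (26.9%), 10 higher and 14 lower in LC than in MEF (37% and 37.1%), and 9 lower in CiLC than in LC (37%). With single libraries left out, 1 library remained in a group. The largest shift among members given full statistics was that of Cdh4 in CiLC against LC. Its log2 fold change went from 3.24 to 6.55 without LC replicate 2. Upper-quartile scaling moved the median of all genes by -0.1 in LC against MEF. The replicate numbers do not pair the samples by any label, and deviations of libraries with the same number correlated at -0.0773 to 0.0886. With the replicate block, 11 members were higher and 18 lower in CiLC against MEF (26% and 25.5% of all genes). The counts were 16 and 22 in LC against MEF (35.6% and 35%) and 20 and 16 in CiLC against LC (35% and 35.6%). The counts in the partner lists were checked in the same settings, which was decided after seeing the data. With 0.4 assumed, the higher and lower adaptors were 0 and 0 in CiLC against MEF, 0 and 2 in LC against MEF and 0 and 3 in CiLC against LC. In the same order, matrix ligands were 1 and 2, 4 and 5, and 2 and 4, surface ligands 0 and 0, 7 and 2, and 0 and 3, and cadherin partners 0 and 1, 1 and 3, and 1 and 1. Upper-quartile scaling gave 7 cadherin partners higher in CiLC than in LC. At these depths, members under about 1 CPM rest on few reads.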
